A study of Sus scrofa with 32 samples.

Results

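Testes of High AS pigs were compared with testes of Low AS pigs among the animals fed the control diet, 17 of the 32 pigs in the series. The pigs were chosen by their labels alone: 10 carried the labels High AS and control diet, and 7 carried the labels Low AS and control diet. AS stands for androstenone and skatole in the labels. All 17 were uncastrated males, Danish crosses of Duroc with Landrace/Yorkshire, none had received the chicory feed, and no age was given. RNA of the whole testis was sequenced as stranded, poly(A)-selected libraries, so each value mixes all cell types of the organ. High AS pigs had 2.64 mg/kg ± 2.23 androstenone (SD, n = 10) and Low AS pigs 0.59 mg/kg ± 0.445 (SD, n = 7). The ranges were 0.67 to 7.77 mg/kg in High AS pigs against 0 to 1.04 mg/kg in Low AS pigs, so that High AS replicate 5, at 0.67 mg/kg, lay inside the Low AS range. Skatole was given for 7 High AS pigs, at 0.037 to 0.615 mg/kg, and for 2 Low AS pigs, at 0.055 and 0.24 mg/kg. High AS replicate 5 had the 0.615 mg/kg, the highest skatole value given. The 17 pigs came from 13 sows, and 4 of these sows had pigs in both groups.

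Androstenone is a 16-androstene steroid made by the Leydig cells of the boar testis and stored in fat, where it contributes to boar taint. Leydig cells take up or synthesise cholesterol, cleave its side chain with CYP11A1, and pass the product to CYP17A1, which with the cytochrome b5 CYB5A opens both the androgen and the 16-androstene branch. A 5-alpha-reductase step completes androstenone. The germ cells, which make up most of the organ, and the Sertoli cells that support them are not counted among its sources.

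Counts in genes ran from 2867910 to 17581427 per library, with a median of 4158985, and 15549 to 18132 genes had at least 1 count. A set of 5 deep libraries, at 10585625 counts or more, contained 3 High AS pigs (replicates 2, 3 and 8) and 2 Low AS pigs (replicates 3 and 7). The other 12 libraries had 5783562 counts or fewer, and whether a library was deep was a term of the main model. The deep libraries shared a sequencing index that no other library had, so depth and index cannot be told apart in that term. Both libraries sequenced on lane 7 were High AS. No pair of libraries within a group agreed within sampling noise. Testis identity was plain in all 17: PRM1, the protamine that packs sperm DNA, had 5797 to 18440 CPM (counts per 1000000 counts in genes) in High AS pigs, against 4441 to 14020 CPM in Low AS pigs.

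No gene differed between High and Low AS testes on the control diet at the threshold. Of 12776 genes tested with edgeR's quasi-likelihood test, 0 passed a Benjamini-Hochberg adjusted p of 0.05, which is 0% of the genes, and the smallest adjusted p was 0.9999. At an unadjusted p under 0.05 there were 81 genes with a higher estimate in High AS pigs (0.634% of the genes tested) and 80 with a lower one (0.626%). Together these 161 genes are fewer than the 639 that 5% of the genes tested would make. When single pigs were left out the count of 161 became 126 to 284, with 284 without Low AS replicate 5 and 283 without High AS replicate 3. Limma voom called 0 genes and DESeq2 called 1, beside 190 and 191 genes below 0.05 without adjustment. The estimates were balanced: 50.6% of genes had a log2 fold above 0 and the median over all genes was 0.00. The standard error (SE) of a log2 fold had a median of 0.21 and was under 0.5 for 98.4% of genes. All values below are therefore estimates, with levels in CPM after TMM scaling (trimmed mean of M values), where "higher" or "lower" gives the sign of an estimate that did not pass.

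The genes that supply cholesterol had the most uniform direction of the lists with more than 2 tested genes. For all 26 of the 26 tested genes of this list, which covers cholesterol synthesis, uptake and storage, the estimate was higher in High AS pigs, beside 50.6% of all genes, and none passed the adjusted test. Their log2 folds had a median of 0.42. The list was chosen with earlier results of these data known, so its count is a description and not a test. SOAT1, which esterifies cholesterol for storage in lipid droplets, had 19.3, 29.4 and 58.5 CPM at the lowest, median and highest in High AS pigs, against 18.6, 25.4 and 28.1 CPM in Low AS pigs. Its upper end alone separated the groups, with 5 High AS pigs above every Low AS pig, and its log2 fold was 0.49 (SE 0.20).

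Genes of synthesis and of uptake shared the sign. HMGCS1, an early synthase of the mevalonate pathway, had a median of 300.2 CPM in High AS pigs (range 172 to 499) and 241 CPM in Low AS pigs (range 157 to 428), a log2 fold of 0.45 (SE 0.23). HSD17B7, a ketoreductase of the late sterol steps, had 0.71 (SE 0.36), and SCARB1, the receptor for high-density lipoprotein, had 0.49 (SE 0.29). SQLE, which oxidises squalene, was closer to level at 0.25 (SE 0.15), as was CYP51A1, the lanosterol demethylase, at 0.09 (SE 0.16). LIPE, a lipase that frees cholesterol from its esters, and NSDHL, a sterol decarboxylase, had 0.02 (SE 0.20) and 0.04 (SE 0.17). Spread within each group was wide throughout: no member separated the 10 High AS pigs from the 7 Low AS pigs.

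Summed over the list, cholesterol genes came to 2488 CPM at the lowest, 3046 at the median and 3672 at the highest in High AS pigs, against 2034, 2703 and 3237 CPM in Low AS pigs. Of the 10 High AS pigs 8 lay above the Low AS median and 3 above every Low AS pig. Among the 5 deep libraries 24 of 26 members were higher, with a median log2 fold of 0.78. Among the other 12 libraries it was also 24 of 26, with a median of 0.25. The deep contrast rests on 3 High AS against 2 Low AS pigs. Of these, High AS replicates 3 and 8 are the libraries with an excess of liver transcripts described below. Without both, 24 of 26 members were higher over the remaining libraries, with a median of 0.29. Leaving out 1 pig at a time kept between 24 and 26 members higher, with medians from 0.25 without High AS replicate 8 to 0.57 without Low AS replicate 5. With sow as a fixed block, which rests on the 4 sows with pigs in both groups, 16 of 26 members were higher and the median was 0.06.

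**Figure D1:**
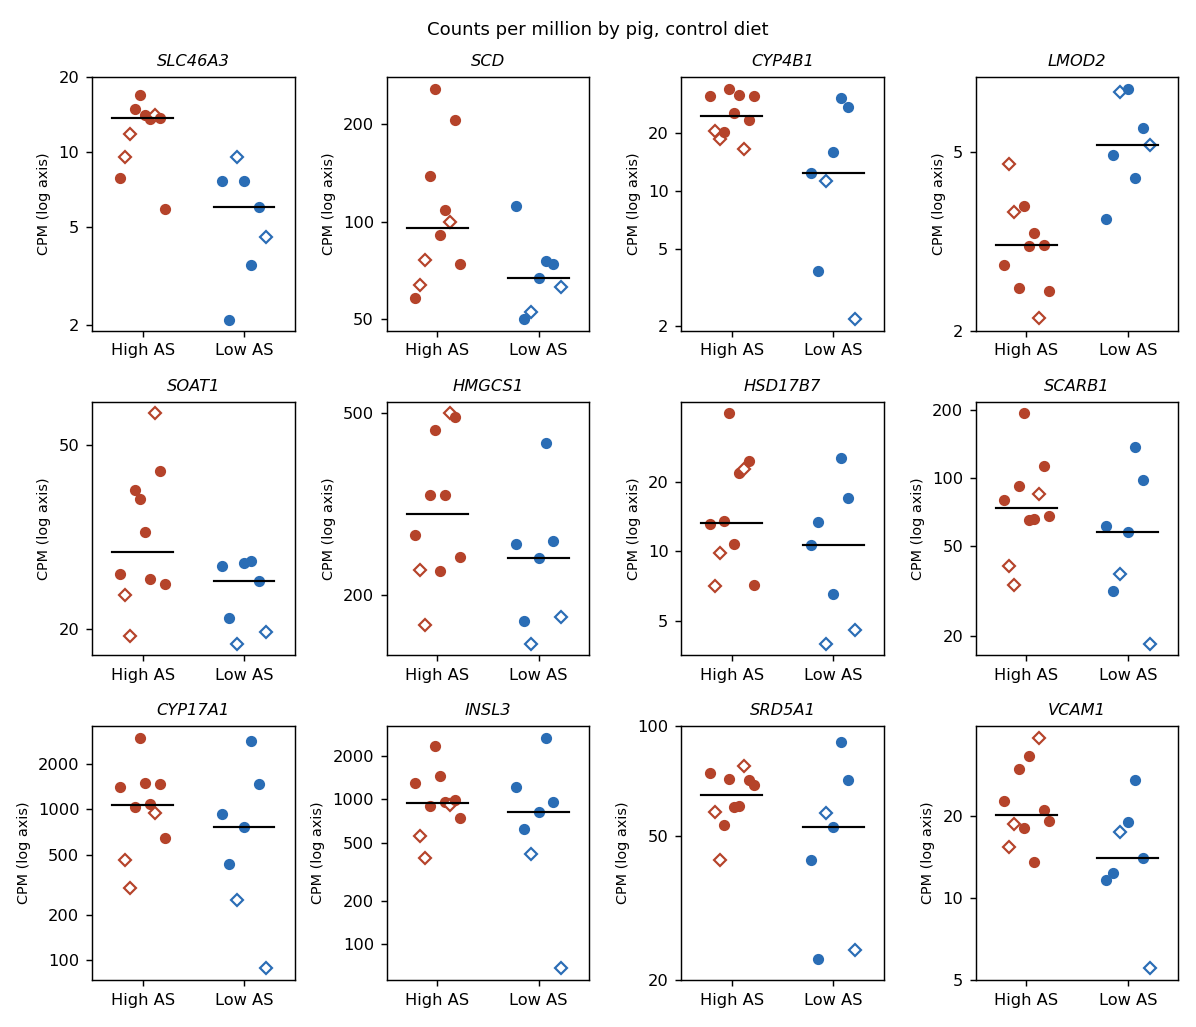
CPM (log axis) of 12 genes in each control-diet pig, High AS in red on the left and Low AS in blue on the right, with filled circles for ordinary libraries, open diamonds for deep libraries and a bar at each group's median. The groups overlap in every panel, LMOD2 is the panel with lower values in High AS pigs, and Low AS replicate 7, an open diamond, has the lowest CYP17A1 at 88.0 CPM.

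Leydig cell genes leaned the same way with large spread between pigs. Of 15 tested Leydig markers 13 had a higher estimate in the High AS group (median log2 fold 0.20). Of 13 tested genes of steroidogenesis 9 did, with a median of 0.17. Some genes belong to both lists. The Leydig markers SCARB1 and NSDHL and the steroidogenesis gene HSD17B7 were also described above among the cholesterol genes, so the lists are not separate sets of genes. With sow as a fixed block, 6 of 15 Leydig markers and 6 of 13 steroidogenesis genes were higher, each list with a median of -0.01. In RNA of a whole organ, more Leydig cells and more RNA per Leydig cell cannot be told apart. Summed Leydig markers came to 2796 CPM at the lowest, 4366 at the median and 8731 at the highest in High AS pigs, against 1598, 3582 and 9258 CPM in Low AS pigs. Both extremes of the 17 pigs were Low AS: replicate 7 had the lowest sum and replicate 5 the highest. With the mean log2 level of 7 Leydig genes added to the model, 24 of 26 cholesterol genes had a higher estimate. Their median was 0.21 in place of 0.42. This covariate was chosen after seeing the data and was measured in the same libraries. Whether Leydig cell content accounts for the cholesterol estimates was not tested.

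CYP17A1 had 299, 1064 and 2987 CPM at the lowest, median and highest in High AS pigs, against 88.0, 768 and 2853 CPM in Low AS pigs. The groups covered nearly the same range, and the log2 fold was 0.58 (SE 0.39). It was 1.75 among deep libraries and 0.16 among the others, 1.00 without Low AS replicate 5, 0.35 without Low AS replicate 7 and -0.04 with sow as a fixed block. CYP11A1 had 90.1, 199 and 447 CPM in High AS pigs, against 40.4, 126 and 525 CPM in Low AS pigs at the same 3 points, a log2 fold of 0.37 (SE 0.35). It was 0.85 without Low AS replicate 5, 0.21 without Low AS replicate 7 and -0.01 with sow as a fixed block. INSL3, the peptide hormone of Leydig cells, had 392, 939 and 2328 CPM in High AS pigs, against 68.2, 815 and 2664 CPM in Low AS pigs. Its log2 fold was 0.34 (SE 0.36), or -0.02 among libraries that were not deep and -0.05 with sow as a fixed block. LHCGR, the receptor for luteinizing hormone that drives Leydig cells, had a log2 fold of 0.35 (SE 0.45). A Low AS pig, replicate 5, held its highest level at 18.7 CPM, and without that pig the estimate was 1.23.

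Other genes linked to steroid production, and FTL, had log2 folds from -0.52 to 0.32 over all 17 libraries. SRD5A1, a 5-alpha-reductase, had 42.8, 64.5 and 77.9 CPM at the lowest, median and highest in High AS pigs, against 22.9, 52.9 and 90.4 CPM in Low AS pigs. High AS pigs lay above the Low AS median in 9 of 10 cases, inside a range that Low AS pigs exceeded at both ends, and the log2 fold was 0.32 (SE 0.22), or -0.19 with sow as a fixed block. CYB5A had 0.20 (SE 0.24), or 0.52 without Low AS replicate 5, and HSD17B3, which makes testosterone from androstenedione, 0.17 (SE 0.26), or -0.04 without High AS replicate 5. NR5A1, the transcription factor that switches on steroid genes, had 0.08 (SE 0.33), and FTL, the ferritin light chain, 0.30 (SE 0.20). TSPO, a mitochondrial membrane protein linked to cholesterol import, had the smallest p among steroidogenesis genes with a lower estimate, at -0.52 (SE 0.34).

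Among Leydig markers, VCAM1, a cell adhesion molecule, and IGF1, a growth factor, had the smallest p in either direction and opposite signs. VCAM1 had 13.5, 20.1 and 38.8 CPM at the lowest, median and highest in High AS pigs, against 5.55, 14.0 and 27.2 CPM in Low AS pigs, with a log2 fold of 0.62 (SE 0.27). IGF1 had 1.24, 2.35 and 11.8 CPM in High AS pigs, against 2.54, 4.92 and 12.4 CPM in Low AS pigs, with a log2 fold of -0.83 (SE 0.28). For IGF1, 6 of 10 High AS pigs lay below every Low AS pig, while High AS replicate 8 reached almost the highest Low AS level.

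**Figure D2:**
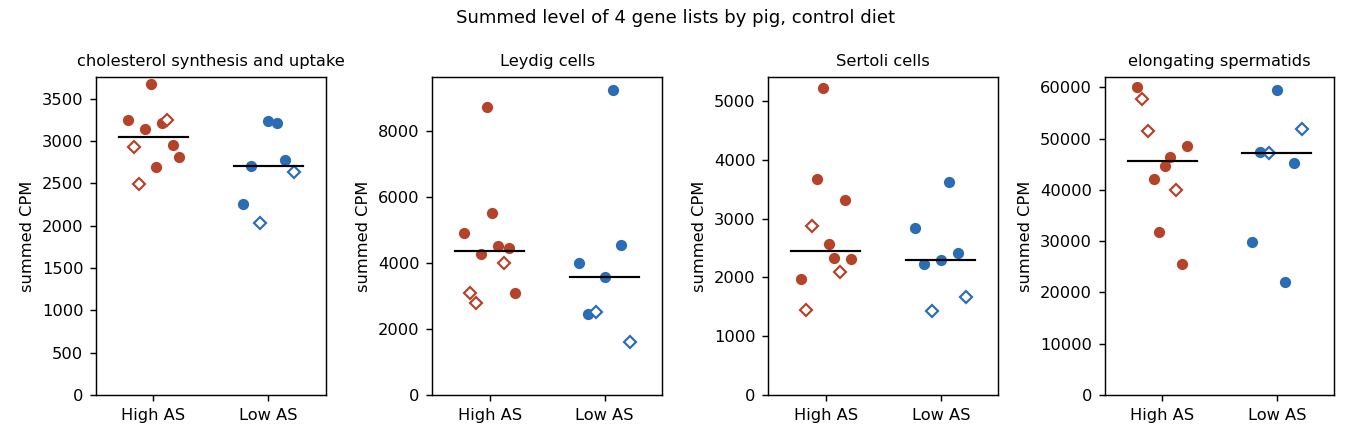
Summed CPM of 4 gene lists in each control-diet pig, High AS in red on the left and Low AS in blue on the right, with open diamonds for deep libraries and a bar at the median. Cholesterol sums have medians of 3046 and 2703 CPM, and Leydig sums spread most in Low AS pigs, from 1598 to 9258 CPM. Elongating spermatid sums cover nearly the same range in both groups.

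Genes with the smallest p among the higher estimates came from several processes. SLC46A3, a transporter of the lysosomal membrane, had the smallest p of all genes with a symbol. It had 5.90 CPM at the lowest, 13.6 at the median and 16.9 at the highest in High AS pigs, against 2.11, 6.0 and 9.54 CPM in Low AS pigs, with a log2 fold of 1.05 (SE 0.27). In 7 of 10 High AS pigs it exceeded every Low AS pig, and the estimate stayed between 0.91 and 1.24 when any 1 pig was left out. CYP4B1, a cytochrome P450 acting on fatty acids and xenobiotics, had 16.6, 24.5 and 34.1 CPM in High AS pigs, against 2.17, 12.4 and 30.4 CPM in Low AS pigs, with a log2 fold of 0.88 (SE 0.32). All 10 High AS pigs were above the Low AS median of CYP4B1, and the Low AS pigs ranged from the lowest levels of the 17 to nearly the highest.

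A pair of lipid genes stood among the same 10. SCD, the desaturase that makes monounsaturated fatty acids, had 58.0, 95.4 and 258 CPM at the lowest, median and highest in High AS pigs, against 49.9, 66.8 and 112 CPM in Low AS pigs, with a log2 fold of 0.71 (SE 0.25). ACSS2, which makes acetyl-CoA from acetate in the cytosol, had 8.36, 12.8 and 35.8 CPM in High AS pigs, against 4.23, 9.65 and 17.6 CPM in Low AS pigs, with a log2 fold of 0.82 (SE 0.30). High AS replicate 5 had the highest level of both genes. GUSB, the lysosomal beta-glucuronidase, had a log2 fold of 0.76 (SE 0.27), SLC14A2, a urea transporter, 1.08 (SE 0.36) and TNFRSF12A, the receptor for the cytokine TWEAK, 1.06 (SE 0.38). TSPAN7, a tetraspanin, had 0.98 (SE 0.36) and EPB41L4A, of the band 4.1 family, 0.81 (SE 0.28). The other gene of the 10, ALB, is described with the liver transcripts.

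The 10 lower estimates with the smallest p ran from -1.0 to -0.37. LMOD2, an actin filament nucleator, had 2.14, 3.10 and 4.70 CPM at the lowest, median and highest in High AS pigs, against 3.56, 5.19 and 6.93 CPM in Low AS pigs, with a log2 fold of -0.76 (SE 0.22). It was below every Low AS pig in 7 of 10 High AS pigs and below the Low AS median in all 10. CCDC107, a coiled-coil protein, had 7.54, 9.75 and 13.6 CPM in High AS pigs, against 10.1, 17.1 and 18.7 CPM in Low AS pigs, with a log2 fold of -0.60 (SE 0.18). TCOF1, a nucleolar protein of ribosome production, had a median of 75.3 CPM in High AS pigs, against 104 CPM in Low AS pigs, with a log2 fold of -0.37 (SE 0.13). Each group of TCOF1 values had 1 pig placed with the other group, High AS replicate 10 at 105.5 CPM and Low AS replicate 7 at 64.9 CPM.

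KBTBD12, of the kelch family, had a log2 fold of -1.0 (SE 0.37), and BAD, which promotes cell death, -0.43 (SE 0.16). ENO2, an enolase, had -0.58 (SE 0.22), or -0.30 without Low AS replicate 3, whose 38.1 CPM was the highest of the 17 pigs. DND1, an RNA-binding protein of germ cells, had -0.61 (SE 0.24), C1orf35 -0.40 (SE 0.15) and TMEM101 -0.39 (SE 0.15).

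**Figure D3:**
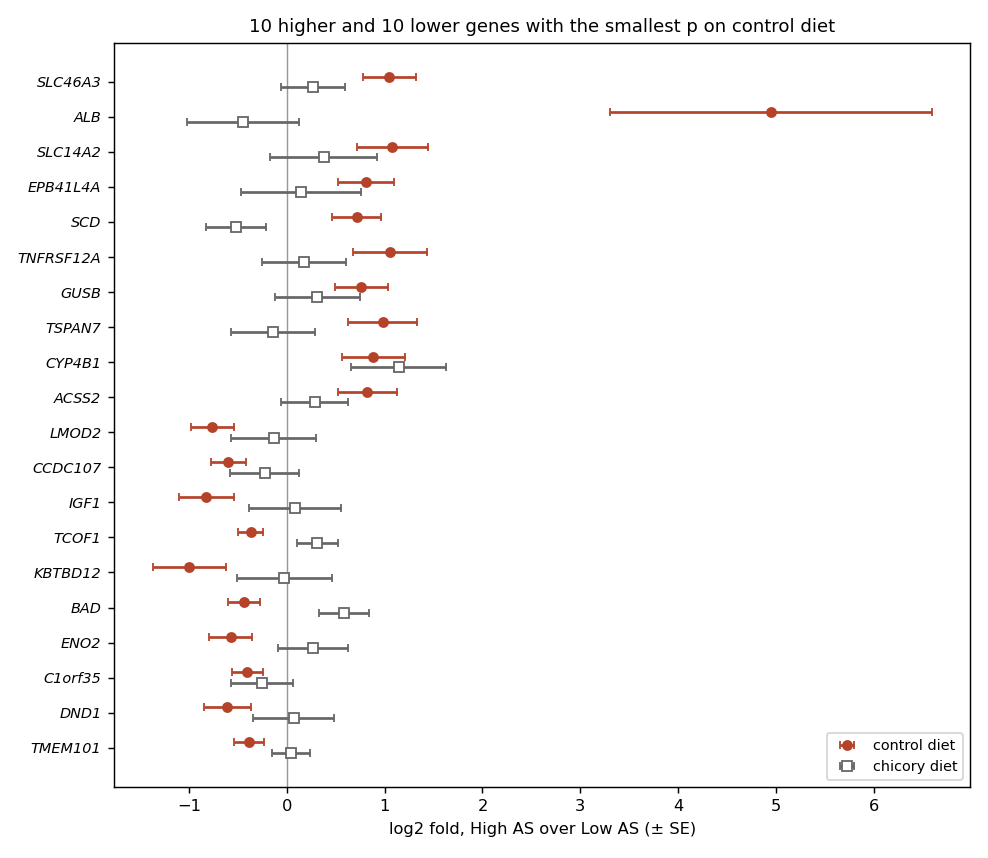
Log2 folds (High AS over Low AS, ± SE) of the 10 genes with a higher and the 10 with a lower estimate that had the smallest p on control diet, as red circles, with the chicory-diet estimate of the same gene as open squares. Without ALB, whose estimate is 4.95 and rests on 2 libraries, control estimates run from -1.0 to 1.08, and 11 of the 20 chicory estimates have the same sign.

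Germ cell lists had medians close to 0 over all 17 pigs. The median log2 fold was 0.04 for elongating spermatids (19 of 25 higher), 0.02 for round spermatids (12 of 21), -0.01 for spermatocytes (11 of 24) and -0.04 for spermatogonia (2 of 7). Spermatogonial markers had a median of -0.18 among deep libraries (1 of 7 higher) and -0.23 among the others (3 of 7). PRM1 had a median of 10760 CPM in High AS pigs, against 11880 CPM in Low AS pigs, with a log2 fold of 0.04 (SE 0.23), and PRM2, the partner protamine, had -0.24 (SE 0.30). SYCP3, of the synaptonemal complex that holds paired meiotic chromosomes, had 0.02 (SE 0.13), and SPO11, which makes the meiotic double-strand breaks, 0.32 (SE 0.24). ETV5, a transcription factor of spermatogonial self-renewal, had 0.05 (SE 0.14), and DMRT1, which keeps spermatogonia from early meiosis, -0.40 (SE 0.29). Summed elongating spermatid genes ran from 25500.0 to 60080.0 CPM in High AS pigs, against 22030.0 to 59490.0 CPM in Low AS pigs. The sign of both spermatid medians turned when single pigs were left out: without Low AS replicate 5 they were -0.07 and -0.09. Other fits gave more uniform counts: 25 of 25 elongating spermatid genes (median 0.28) and 20 of 21 round spermatid genes (median 0.22) were higher with sow as a fixed block, and 25 of 25 (0.30) and 21 of 21 (0.25) with the Leydig covariate.

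Somatic cells outside the Leydig compartment had modest estimates. Endothelial markers were higher for 9 of 11 genes with a median log2 fold of 0.26, but for 4 of 11 with a median of -0.08 when sow was a fixed block. Among them KDR, the main receptor for vascular endothelial growth factor, had a median of 9.42 CPM in High AS pigs (range 3.59 to 34.1) and 8.64 CPM in Low AS pigs (range 2.46 to 12.8). The KDR log2 fold was 0.71 (SE 0.34), or 0.47 without High AS replicate 8 and -0.06 with sow as a fixed block. Sertoli markers were higher for 12 of 17 genes with a median of 0.15, and for 8 of 17 with a median of 0.00 without High AS replicates 3 and 8. The highest estimate of that list was TF, a plasma protein gene that is also on the liver list and is described with the liver transcripts. CLU, a secreted chaperone of Sertoli cells, had 0.34 (SE 0.21), and INHA, the inhibin alpha subunit, -0.19 (SE 0.26). Extracellular matrix genes were higher for 22 of 28, with a median of 0.17. Without High AS replicates 3 and 8 they were higher for 12 of 28 (median -0.07), and with sow as a fixed block for 13 of 28 (median -0.02); High AS replicate 8 had the highest sum of the list, at 1790 CPM. MMP14, a membrane-bound collagenase, had 0.76 (SE 0.33), with a median of 14.7 CPM in High AS pigs, against 7.67 CPM in Low AS pigs.

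Peritubular and smooth muscle markers split evenly, with 6 of 12 higher, and macrophage markers did too, with 4 of 8. With sow as a fixed block, 1 of 12 peritubular and smooth muscle markers (median -0.13) and 3 of 8 macrophage markers (median -0.04) were higher. MRC1, the mannose receptor of macrophages, was above the Low AS median in all 10 High AS pigs, with a log2 fold of 0.44 (SE 0.22). Other macrophage markers went the other way. LYZ was below the Low AS median in all 10 High AS pigs, and TYROBP and FCER1G were below it in 9 of 10. The log2 fold of TYROBP was -0.41. Lymphocyte markers (2 of 3 higher, median 0.01), markers of epididymis and rete testis (6 of 7, median 0.17), adipocytes (0 of 2, median -0.18) and skeletal muscle (3 of 5, median 0.04) rested on few tested genes. Blood cell markers were lower for both tested genes, with a median of -0.44. HBB, the beta-globin, averaged 52.0 CPM ± 43.9 in High AS testes (SD, n = 10), against 81.7 CPM ± 52.4 in Low AS testes (SD, n = 7).

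Medians of the other pathways lay within 0.13 of 0. Nuclear genes of oxidative phosphorylation had a lower estimate for 27 of 34, with a small median of -0.09; in deep libraries 21 of 34 were higher (median 0.04). Mitochondrially encoded genes had a higher one for 9 of 13, with a median of 0.04, and the sign of that median turned under 13 of 35 settings. Their count was 0 of 13 with sow as a fixed block (median -0.25) or without High AS replicate 7 (median -0.12), and 11 of 13 without Low AS replicate 3 (median 0.23). Of the nuclear genes, COX8A, a subunit of cytochrome c oxidase, had -0.36 (SE 0.20). NDUFA6, a complex I subunit, had the highest estimate of the nuclear list at 0.85. In 5 High AS pigs it was above every Low AS pig, while High AS replicate 10 had 0 CPM. Mitotic cell cycle genes were higher for 7 of 22 (median -0.07), among which AURKB, a mitotic kinase, had -0.33 (SE 0.18). Fatty acid and peroxisome genes were higher for 24 of 37 (median 0.08), or 15 of 37 (median -0.04) with sow as a fixed block, xenobiotic enzymes and receptors for 10 of 13 (median 0.08), and steroid sulfation and conjugation genes for 3 of 4 (median 0.13). PAPSS2, which makes the sulfate donor, had 0.50 (SE 0.31), and SLC10A6, a carrier of sulfated steroids, -0.02 (SE 0.22).

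Glutathione and NRF2 response genes were higher for 9 of 15 (median 0.04). NQO1, a quinone reductase, had 20.6, 48.7 and 164 CPM at the lowest, median and highest in High AS pigs, against 14.8, 25.9 and 110 CPM in Low AS pigs, with a log2 fold of 0.77 (SE 0.38). Iron, ferritin and heme genes were higher for 9 of 16 (median 0.04), and TFRC, the transferrin receptor, had 0.54 (SE 0.30). Interferon and antigen presentation genes were higher for 6 of 16 (median -0.08). IFIT2, an interferon-induced protein, stood against that sign at 0.79 (SE 0.30), with 7 of 10 High AS pigs above every Low AS pig at levels of 1.12 to 5.25 CPM in High AS pigs, against 1.05 to 2.16 CPM in Low AS pigs. Immediate early genes (6 of 14, median -0.01), heat shock and unfolded protein genes (14 of 21, median 0.02), TGF-beta, inhibin and BMP genes (16 of 24, median 0.06), IGF and insulin signalling genes (6 of 10, median 0.05) and cell junction genes (9 of 12, median 0.07) were close to 0. ID2, a target of BMP signalling, had -0.71 (SE 0.30).

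**Figure D4:**
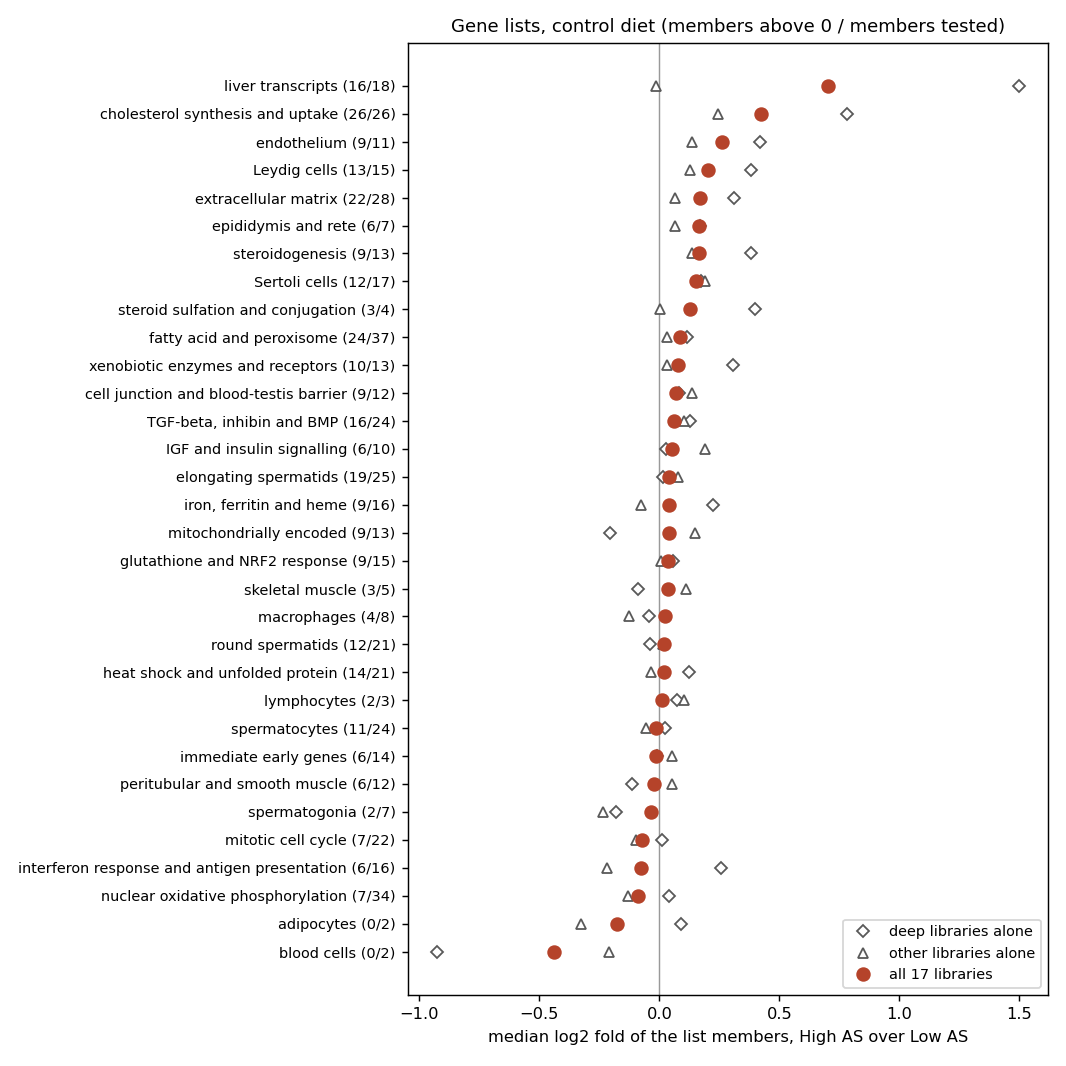
Median log2 fold (High AS over Low AS) of each of 32 gene lists on control diet, as red circles for all 17 libraries, open diamonds for the 5 deep libraries alone and open triangles for the other 12 alone, with the number of members above 0 and tested in brackets. Cholesterol genes have all 3 values above 0 (0.42, 0.78 and 0.25). The germ cell lists lie near 0 over all 17 libraries, with spermatogonia at -0.18 within the deep libraries and -0.23 outside them. Liver transcripts range from -0.02 outside the deep libraries to 1.5 within them.

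Complete separation of the groups was rare. All High AS libraries lay above all Low AS libraries for 1 gene, 0.00783% of those tested, and below them for none (0%). That gene, ENSSSCG00000021616, has no symbol in the table used and is named after its values were seen. It had 3.17 to 4.95 CPM in High AS pigs, against 1.46 to 3.05 CPM in Low AS pigs, with a log2 fold of 0.75 (SE 0.22), and its estimate on the chicory diet was -0.48. ENSSSCG00000025331, the gene called by DESeq2 and within libraries that were not deep, and CYP1A2, the gene called within deep libraries, were present in some pigs and nearly absent in others. ENSSSCG00000025331 had 61.9 to 296 CPM in 8 High AS pigs, against 114 and 303 CPM in 2 Low AS pigs, while the other 7 pigs had 0.254 to 2.46 CPM. CYP1A2, a drug-metabolizing cytochrome P450, had 0 CPM in High AS replicates 6 and 9 and 0 to 0.0829 CPM in Low AS replicates 3 and 7, against 20.2 to 68.2 CPM in the other 13 pigs. Its log2 fold over all 17 libraries was 0.71 (SE 0.97). Both chosen genes are named here after their values were seen.

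The AS difference on the control diet was set against the one on the chicory diet in a model of 31 pigs. The difference between the 2 effects passed the adjusted threshold for 0 of 13025 genes (0%; smallest adjusted p of edgeR's quasi-likelihood test 0.944), with 473 genes (3.63%) at an unadjusted p under 0.05. Limma voom and DESeq2 also called 0, beside 332 and 542 genes without adjustment. Within the 14 pigs on chicory 0 of 12781 genes passed, 701 had an unadjusted p under 0.05, and 48.2% of the estimates were above 0. All 3 deep libraries on chicory were High AS, so with the deep term that comparison rested on 4 High AS against 7 Low AS pigs. The 2 diets shared no pigs, and 50.02% of the 12555 genes tested in both had the same sign. Of the 161 genes with an unadjusted p under 0.05 on the control diet, 52.8% had the same sign on chicory. Among the 10 genes with the smallest p and a higher estimate 7 kept it, with CYP4B1 at 1.14 (SE 0.49) and SLC46A3 at 0.26 (SE 0.33) on chicory, and SCD at -0.52 (SE 0.31). Among the 10 with a lower estimate 4 kept it.

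Cholesterol genes were higher in High AS pigs for 19 of 26 on chicory, with a median log2 fold of 0.16, and elongating spermatid genes for 25 of 25, with a median of 0.47. Leydig markers were higher for 10 of 15 on chicory (median 0.21), but steroidogenesis genes for 5 of 13 (median -0.07). Sertoli markers were higher for 5 of 16 (median -0.22) and endothelial markers for 3 of 10 (median -0.09). Extracellular matrix genes were higher for 5 of 28 on chicory, with a median of -0.35. Among genes with a symbol, the difference between diets had its smallest unadjusted p for ALB (7.2e-05), SLC4A4 (0.00062) and PAX1 (0.00091). SLC4A4, a bicarbonate transporter, had a log2 fold of 0.74 (SE 0.31) on the control diet, where High AS pigs had a median of 12.4 CPM and Low AS pigs 6.73 CPM, and -1.72 on chicory. PAX1, a developmental transcription factor, had -0.79 (SE 0.32) on the control diet and 0.87 on chicory.

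Liver transcripts were present in excess in 1 control-diet library and more faintly in another, both from High AS pigs and both deep. ALB, the serum albumin gene, had 1728 CPM in High AS replicate 3, 65.0 CPM in High AS replicate 8, 0.28 to 5.93 CPM in the other 8 High AS pigs and 0 to 10.5 CPM in the 7 Low AS pigs. Replicate 3 came from lane 7. The same library had the highest level of 38 of the 49 liver genes with an identifier, and their sum was 3293 CPM there, against 222 to 579.5 CPM in the other 9 High AS libraries and 221 to 666 CPM in Low AS libraries. Plasma proteins led: TF, which carries iron, had 244 CPM in replicate 3, 7.84 CPM in replicate 8 and 1.46 to 5.63 CPM in the other 15 libraries. AHSG, a fetuin, had 89.1 CPM in replicate 3, 3.04 CPM in replicate 8 and at most 0.413 CPM elsewhere. APOC3 of lipoproteins, HPX, which binds heme, and TTR, which carries thyroid hormone, had 84.1, 82.9 and 68.6 CPM in replicate 3 and 2.33, 1.88 and 1.94 CPM in replicate 8.

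Some liver genes are also read in the testis itself, among them APOE, APOA1 and C3, whose highest levels were not in replicate 3. A set of 30 liver genes with a median under 1 CPM over the other 16 libraries left those out. Its sum was 619.9 CPM in High AS replicate 3, 26.3 CPM in High AS replicate 8, 4.67 to 10.2 CPM in the other 8 High AS pigs and 3.52 to 9.11 CPM in Low AS pigs, with 2.34 to 18.6 CPM in the 15 pigs outside the comparison. Over 12 genes of that set with at least 10 reads in replicate 8, the ratio of replicate 3 to replicate 8 had a median of 27.1, with a range of 0.0485 to 44.2. Across all 32 pigs, ALB had 4.55 CPM or more in each of the 8 deep libraries and 5.04 CPM or less in each of the 24 others. Where these transcripts came from was not tested.

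Most liver genes had lower estimates without these libraries. Of 18 liver genes tested, 16 were higher in High AS testes (median log2 fold 0.70); without replicate 3 it was 14 of 18 with a median of 0.12, and without both libraries 11 of 18 with a median of 0.03. HPD, of tyrosine breakdown, had 0.84 (SE 0.54), or 0.79 without replicate 3 and 0.50 without both. ALB had a log2 fold of 4.95 (SE 1.64), or 1.2 without replicate 3 and -0.13 without both libraries, and TF had 1.43 (SE 1.10), or 0.07 without replicate 3. Cholesterol genes, several of which the liver also uses, remained higher for 26 of 26 without replicate 3, with a median of 0.37, and for 24 of 26 without both, with a median of 0.29. Liver genes made up 0.3045% of the gene counts of replicate 3 before TMM scaling.

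**Figure D5:**
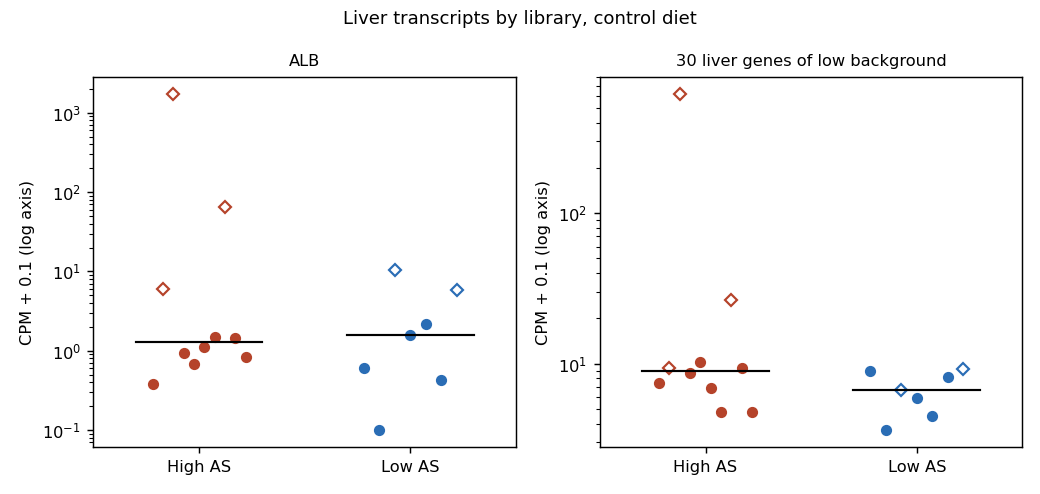
ALB (left panel) and the sum of 30 liver genes with little testis background (right panel) in CPM plus 0.1 on log axes, by control-diet library, High AS in red on the left and Low AS in blue on the right, with open diamonds for deep libraries and a bar at the median. High AS replicates 3 and 8 stand above all other libraries in both panels, at 1728 and 65.0 CPM for ALB, and the remaining libraries of the groups overlap.

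The carcasses of High AS pigs weighed 91.7 kg ± 4.93 (SD, n = 9), against 87.7 kg ± 4.88 for those of Low AS pigs (SD, n = 7), a difference of 4.02 kg. It had a two-sided exact permutation p of 0.128. With carcass weight as a covariate, in the 16 pigs that had one, 0 genes passed, 201 had an unadjusted p under 0.05, and 23 of 26 cholesterol genes were higher with a median of 0.34.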

How the data were processed

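Testis RNA of 17 control-diet pigs was analysed, with 14 chicory-diet pigs added for the difference between diets. The authors deposited raw read counts per gene, and the submitters' processing notes name HTSeq 0.6.0, STAR, Trimmomatic 0.33, SAMtools 1.3.1 and cutadapt 1.8.1. The genome build, annotation and strand setting are not given in the sources used here, and antisense or overlapping genes cannot be told apart. The 5 closing rows of each table were dropped; reads in no gene made up 21.4% to 36.0% of a library. A table of symbols named 11804 of 25322 identifiers, and 604 of 873 list symbols had one; for CYP19A1, HSD3B1, SULT2A1 and STAR no identifier was found, and they are not analysed here.

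Counts were fitted with edgeR 4.0.16 (R 4.3.3): filterByExpr, TMM, glmQLFit and glmQLFTest on AS group and deep library (over 8000000 counts), with Benjamini-Hochberg adjustment at 0.05. SE was taken as the log2 fold over the root of its F value. The interaction used 31 pigs in 4 groups. Scripts were tested on simulated data. Alternatives used limma 3.58.1, DESeq2 1.42.0, other scalings, filters, covariates and samples.

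Pigs were grouped by their labels; the label gives each pig as a separate animal, and replicate numbers follow accession order. Litters are shared by some pigs, and p-values treat pigs as independent. Genes named are the 10 higher and 10 lower with the smallest p among genes with a symbol, in each list the member with the smallest p in each direction and that with the most CPM, 11 androgen genes, 5 liver genes and the 3 smallest interaction p; further members are given to describe a list and were chosen with their values seen. Members and lists were chosen with earlier results of these data known, so they are described by counts and medians without a test of the list. Some genes that this rule names are not reported here.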

Additional observations from a re-analysis of the deposited data

Results flagged for a closer look

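Among 294 groups of values checked, 20 had a pig whose distance to the nearest of its group exceeded Dixon's 95% critical value on the log2(CPM + 1) scale; chance alone flags about 1 group in 20. High AS replicate 3 stood above its group for summed liver transcripts (3293 CPM), TF (244 CPM), MAT1A, a liver methionine enzyme (17.98 CPM), and summed adipocyte markers (58.9 CPM). High AS replicate 10 had the highest TCOF1 (105.5 CPM) and CRAT, a carnitine acetyltransferase (298 CPM), and the lowest NDUFA6, a complex I subunit (0 CPM). High AS replicate 5 had the lowest CLDN4 (0.291 CPM), replicate 1 the highest AURKB (69.5 CPM) and replicate 6 the lowest LAMB1 (106.5 CPM).

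In Low AS pigs, replicate 5 had the lowest LAMB1, a laminin chain (113 CPM), and the highest LHCGR (18.7 CPM), NPC2, a cholesterol carrier of lysosomes (64.1 CPM), and summed liver transcripts (666 CPM), of which its low-background set was 4.39 CPM. Low AS replicate 3 had the highest ENO2 (38.1 CPM), C1orf35 (56.6 CPM), MAT1A (7.88 CPM) and summed spermatogonial markers (239.8 CPM). Low AS replicate 7 had the lowest TCOF1 (64.9 CPM), and Low AS replicate 2 the lowest TSPO (0.352 CPM).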

How the results depend on the processing

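The labels give no replicate numbers; pigs were paired by shared sow instead, as a random effect or as a fixed block that rests on 4 sows. The count of genes past the threshold was 0 except in DESeq2, among libraries that were not deep and among deep libraries, with 1 gene each; leaving out single pigs gave 0 genes each time for both the AS comparison and the difference between diets. At an unadjusted p under 0.05, the AS comparison had 108 genes with no deep library term and 536 with no filter on low counts. Fewer genes than the 12776 of the main fit were tested with no deep library term, and more with no filter. The counts are therefore not shares of the same set of genes. The AS comparison had 283 genes without High AS replicate 3 and 284 without Low AS replicate 5, against 161 in the main fit with all pigs. The carcass weight difference was 2.98 to 5.43 kg when single pigs were left out; without Low AS replicate 5 it was 5.43 kg, with an exact permutation p of 0.0384. The alternative without High AS replicate 5, the pig with low androstenone, is the same fit as leaving that pig out. Of 32 list medians 6 kept their sign under up to 35 settings, cholesterol among them, and of 113 named genes 63 did. Leydig markers were higher for 6 of 15 with sow as a fixed block (median -0.01). The deep contrast rests on 3 against 2 pigs. The spread between pigs and the depth were not separated as limits on precision.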
